A study of Mus musculus with 4 samples.

Results

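The expression of 38 interferon-stimulated genes was examined in leukemic granulocyte-macrophage progenitors (L-GMPs), the cells of an MLL-AF9-driven acute myeloid leukemia that resemble normal granulocyte-macrophage progenitors. The genes form a named list of classical interferon targets, and all 38 were found by symbol among the 45232 gene identifiers counted. MLL-AF9 is a fusion oncoprotein. Cells were sorted from secondary recipient mice at death, as positive for the surface markers c-Kit, CD34, CD16/32 and Sca-1 and for the fluorescent labels GFP and tdTom. The group Scr and the group miR-99 KD, in which the microRNA miR-99 was to be reduced, each held 2 mice and 2 RNA sequencing libraries, and both groups carried MLL-AF9. Neither Scr nor KD is spelled out in the labels, and the sources used here do not give strain, age, the vector behind the reduction or the number of primary leukemias. Values given as a run of 4 numbers are in the order Scr 1, Scr 2, then miR-99 KD 1, miR-99 KD 2.

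Interferons are secreted proteins that alert cells to infection. Type I interferons bind a receptor made of Ifnar1 and Ifnar2, whose kinases Jak1 and Tyk2 phosphorylate Stat2. With Irf9 it forms part of a complex that binds the interferon-stimulated response element (ISRE) in the promoters of target genes, whereas interferon gamma acts at the gamma-activated site (GAS). The products of the target genes sense viral nucleic acid, degrade RNA, block translation or restrict virus particles, and several of them also have a basal level in blood progenitors without infection.

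The ISRE was present in many of the promoters. RefSeq windows from 250 bases before to 50 bases after the annotated gene start (build GRCm38.p6) were held for 29 of the 38 genes. The 9 genes without a window were Dhx58, Mx1, Mx2, Oas2, Parp14, Parp9, Rtp4, Usp18 and Zbp1. The ISRE motif, spelled GAAA, any 2 bases, then GAAA, was searched on both strands, and 16 of the 29 genes (55.2%) held it, against 1079 of 27025 genes in the whole promoter table (3.99%). Of the 16, 9 had 1 match and 7 had 2 or more. The GAS motif TTCNNNGAA, which reads the same on both strands, was in 8 of the 29 genes (27.6%), against 9.55% of all genes. Both motifs stood in the windows of 4 genes, Bst2, Eif2ak2, Gbp7 and Oas1a, and they overlapped each other only in Bst2. Neither motif was in the windows of 9 genes. These are matches of letters, and binding was not measured.

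The following stretches show the ISRE of 7 genes whose values are described further on. Isg15, Ifit1 and Ifit3 are classical targets, Oas1a and Oas1g are close paralogs, and Gbp3 and Ifih1 were among the genes with the clearest separation between the groups. Each is printed 5′ to 3′ on the strand of its gene with the ISRE matches in capitals, and where the motif lies on the other strand the capitals show its reverse complement.
Isg15 (chr4:156200856-156200915, minus strand): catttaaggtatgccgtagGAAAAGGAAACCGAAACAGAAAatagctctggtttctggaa
Ifit1 (chr19:34640769-34640828, plus strand): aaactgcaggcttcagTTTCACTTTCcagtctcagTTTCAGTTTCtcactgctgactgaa
Ifit3 (chr19:34583365-34583424, plus strand): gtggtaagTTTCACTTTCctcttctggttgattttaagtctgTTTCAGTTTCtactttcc
Oas1a (chr5:120907526-120907585, minus strand): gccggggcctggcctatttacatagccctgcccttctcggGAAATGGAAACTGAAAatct
Oas1g (chr5:120887614-120887673, minus strand): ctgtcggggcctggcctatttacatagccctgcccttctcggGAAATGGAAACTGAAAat
Gbp3 (chr3:142559977-142560036, plus strand): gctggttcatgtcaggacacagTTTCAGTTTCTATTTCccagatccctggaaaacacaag
Ifih1 (chr2:62646206-62646235, minus strand): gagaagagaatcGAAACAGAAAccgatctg
In Isg15 the run of capitals holds 3 overlapping matches, in Oas1a, Oas1g and Gbp3 it holds 2, and in Ifit1 and Ifit3 the 2 matches stand apart. The Oas1a and Oas1g windows were identical at 207 of 298 aligned bases (69.5%) when shifted by 2 bases. The Ifih1 match lies 33 to 42 bases after the gene start and the other 6 stretches lie before it.

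**Figure D1:**
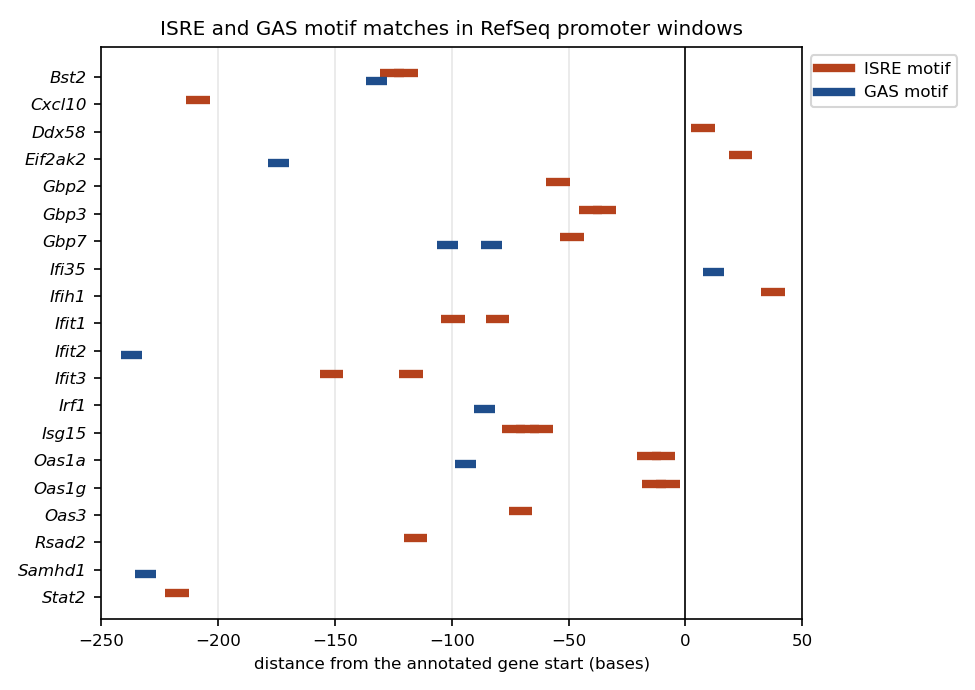
Positions of ISRE matches (red) and GAS matches (blue) in the RefSeq windows of the 20 genes with either motif, as distance in bases from the annotated gene start (vertical line). In 13 of the 16 genes with an ISRE the matches lie before the start, and in Ddx58, Eif2ak2 and Ifih1 they lie after it.

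The libraries had 38458519 to 42674407 counts in genes, and CPM is a gene's count scaled to a library total of 1000000. Scr 1 stood apart, with 28573 genes having a count against 21372 to 24038 in the others and 51.9 CPM in olfactory receptor genes against 4.78 to 14.95 CPM. Each library had 0 counts of the microRNA genes Mir99a, Mir99b and Mir100, so the reduction of miR-99 was not checked by these data. The sorted population was checked by its markers. Kit had 453, 424, 298 and 232 CPM, Cd34 358, 283, 345 and 334 CPM, and Fcgr3, which encodes the CD16 of the gate, 437, 370, 413 and 482 CPM. Ly6a, the gene of Sca-1, had 4, 8, 5 and 4 counts, which goes against the Sca-1-positive gate of the labels.

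The interferon-stimulated genes were present at widely differing levels, and the textbook reporters Isg15, Ifit1, Ifit3 and Rsad2 were in the lower range. Levels between genes were compared as CPM per kilobase of merged exons, averaged over the 4 libraries. This level was above 10 in 6 genes, between 1 and 10 in 15, between 0.1 and 1 in 13 and at 0.1 or less in 4. The highest was Sp100, a component of PML nuclear bodies, with 60.7, 47.4, 48.1 and 49.6 CPM per kilobase. Bst2, the tetherin that holds budding virus at the cell surface, followed with 36.6, 27.7, 33.1 and 18.3. Ifi35, an interferon-induced leucine zipper protein, had 29.1, 23.6, 27.2 and 25.7. These ranges of Bst2 and Ifi35 overlapped, so their order was not separated by the spread between libraries, and Sp100 lay above both in each library. The next were Gbp3 (mean 18.1), Irf1 (14.2) and Oas1a (12.3). With the longest transcript in place of merged exons, 5 of these 6 genes were still the 6 highest.

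At the other end, Isg15, a ubiquitin-like modifier, had 42, 13, 29 and 31 counts, a mean of 0.930 CPM per kilobase. Ifit1, which binds viral RNA that lacks the host cap, had 35, 26, 26 and 30 counts. Rsad2 (viperin, an antiviral enzyme) had 79, 60, 44 and 84 counts and Oasl2 had 18, 10, 29 and 24. Ifit3, a partner of Ifit1, had 2, 5, 1 and 2 counts. Mx2, annotated as a polymorphic pseudogene, had 5, 1, 6 and 6. Ifi44 had 33, 0, 4 and 8 counts. The 0 in Scr 2 allows up to 0.0716 CPM, and the 33 came from Scr 1, the library with the high olfactory receptor counts. Ifit3, Mx2 and Ifi44 did not pass the filter on low counts, so 35 of the 38 genes were tested. Members of a family thus differed widely in level: Ifit2 had a mean of 5.05 CPM per kilobase against 0.268 for Ifit1, and Oas1a 12.3 against 0.0765 for Oasl2.

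Levels of genes with and without an ISRE overlapped. The median level was 1.59 CPM per kilobase over the 16 genes with a match (range 0.0347 to 28.9) and 7.35 over the 13 genes with a window and no match (0.0465 to 51.4). The lowest of the former was Ifit3 and the highest Bst2.

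**Figure D2:**
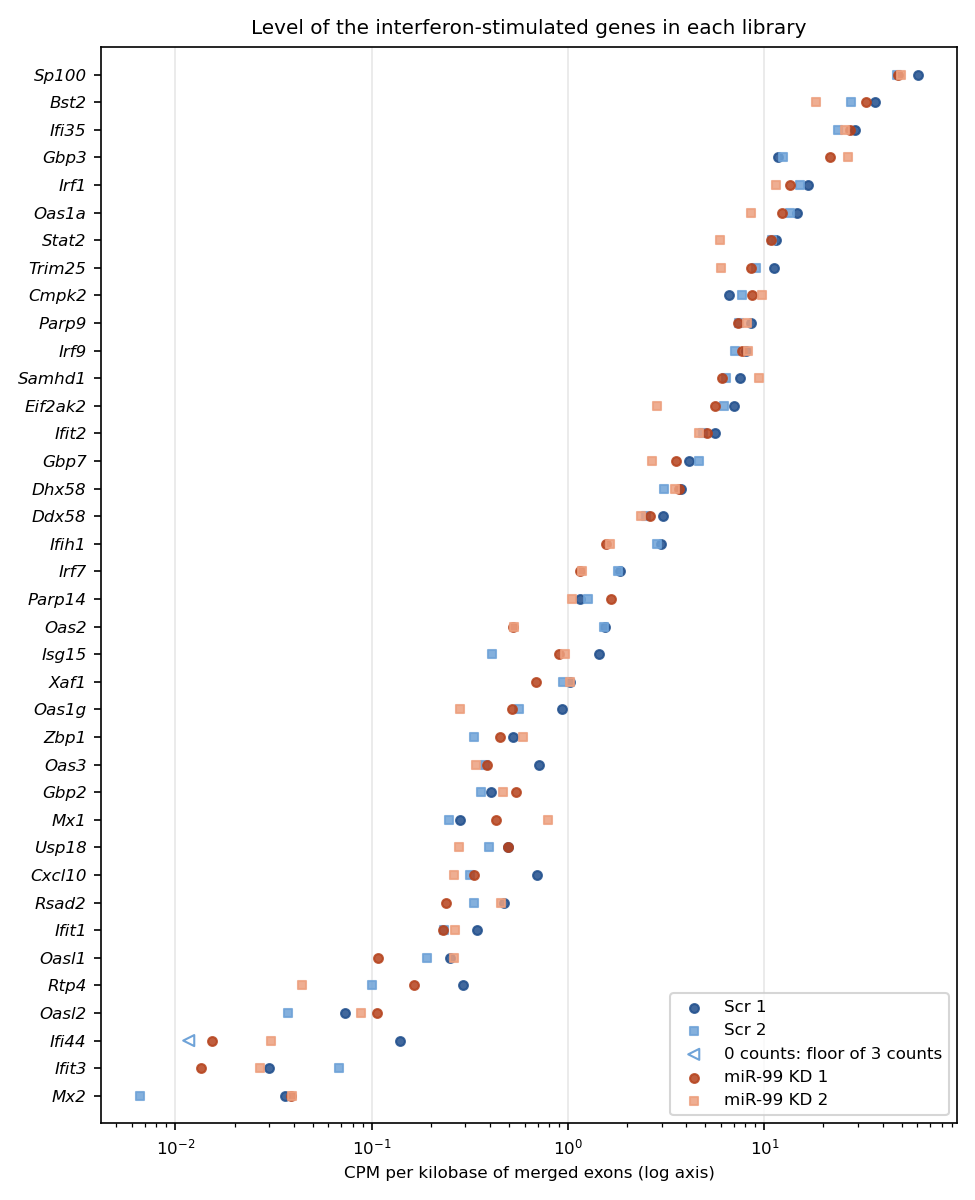
CPM per kilobase of merged exons (log axis) of all 38 genes in the 4 libraries, ordered by their mean; circles and squares are replicates 1 and 2 and the open triangle marks 0 counts, drawn at the floor of 3 counts. The levels run from Sp100, at 47.4 to 60.7, down to Ifit3 and Mx2, under 0.1 in each library.

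The comparison of miR-99 KD with Scr asks how the transcriptome of these cells differs when miR-99 is reduced. No interferon-stimulated gene of the list passed the edgeR test, and the values of single genes lay on both sides of 0. In edgeR's quasi-likelihood test with Benjamini-Hochberg adjustment over all 15591 genes tested, 0 of the 35 genes passed an adjusted p of 0.05, as did 0% of all genes. limma-voom also called 0 of the 35. Without Scr 1, edgeR called 0.993% of all genes higher and 0.855% lower, and again none of the list. The median log2 fold change of miR-99 KD over Scr was −0.15 over the 35 genes and −0.01 over all genes tested, with 13 positive and 22 negative (62.9%, against 51% of all genes). Without Scr 1 the median was 0.053, the highest value with 1 library left out, and the lowest was −0.24. Over the 38 genes the CPM summed to 1178, 1003, 1021 and 991. In bulk libraries, fewer cells of a type and less RNA per cell cannot be told apart.

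The counts of single genes were read against those over all genes. At an unadjusted p under 0.05, edgeR had 2 genes higher in miR-99 KD (5.71% of 35, against 2.66% of all genes) and 2 lower (5.71%, against 5.23%). The lower count was 6 without miR-99 KD 1 (17.1%, against 8.96% of all genes in the same fit) and 1 without Scr 1 (2.86%, against 3.73%). The higher count also moved when 1 library was left out, and so did the share of all genes. Such fits hold only 1 library in a group. Overlap of the groups was scored in log2 CPM with library scaling factors, which the printed CPM lack. Both miR-99 KD libraries lay above both Scr libraries in 7 genes (20%, against 18.9% of all genes) and below them in 9 (25.7%, against 25.3%). In the other 19 genes the groups overlapped. In CPM without scaling factors 5 genes lay above and 10 below, and upper-quartile factors gave the same counts. In the unscaled CPM Irf9 and Dhx58 overlapped and Stat2 lay below. The shares of all genes were not computed for these alternatives. DESeq2, which gave 0.725% of all genes as higher and 0.949% as lower at an adjusted p under 0.05, called 1 gene of the list higher, Gbp3, and 1 lower, Oas2. The library miR-99 KD 2 had the lowest value of the 4 in 17 of the 35 genes and the highest in 10, and Scr 1 had the highest in 11. These counts were not made over all genes, where the median gap between replicates was also wider in miR-99 KD than in Scr.

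The genes at an unadjusted p under 0.05 were Gbp3 and Mx1, with higher values in miR-99 KD, and Oas2 and Ifih1, with lower values. Gbp3, a guanylate-binding GTPase that attacks vacuoles of intracellular pathogens, had 38.5, 40.6, 70.6 and 87.2 CPM. Both miR-99 KD values lay far above the pair of Scr values. Its log2 fold change was 1.04 ± 0.20 (SE), with an adjusted p of 0.466 in edgeR and 0.0141 in DESeq2. Over 12 alternative settings the fold change stayed between 0.94 and 1.23.

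Oas2 makes 2′-5′ oligoadenylate, the messenger that activates RNase L, and had 6.84, 6.76, 2.34 and 2.37 CPM. The replicates were nearly equal within each group and the groups did not overlap. The log2 fold change was −1.47 ± 0.24, with an adjusted p of 0.421 in edgeR and 0.00274 in DESeq2, and it stayed between −1.50 and −1.36 over the same alternatives. Its gene lies at chromosome 5, 120730333 to 120749853 (GRCm38, GENCODE M21), on the minus strand, and no other annotated gene overlaps its exons.

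Ifih1 encodes MDA5, a cytosolic sensor of long double-stranded RNA, and had 24.2, 23.3, 12.7 and 13.3 CPM. Again the replicates lay close together and the groups apart. Its log2 fold change was −0.81 ± 0.19, with an adjusted p of 0.518 in edgeR and 0.139 in DESeq2. Mx1, a dynamin-like GTPase that blocks influenza virus and is defective in many laboratory strains, had 1.07, 0.931, 1.62 and 2.99 CPM. The miR-99 KD libraries lay far apart, and both above Scr. Its log2 fold change was 1.254 ± 0.40 (edgeR adjusted p 0.605, DESeq2 adjusted p 0.474), and it was 0.80 without miR-99 KD 2.

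**Figure D3:**
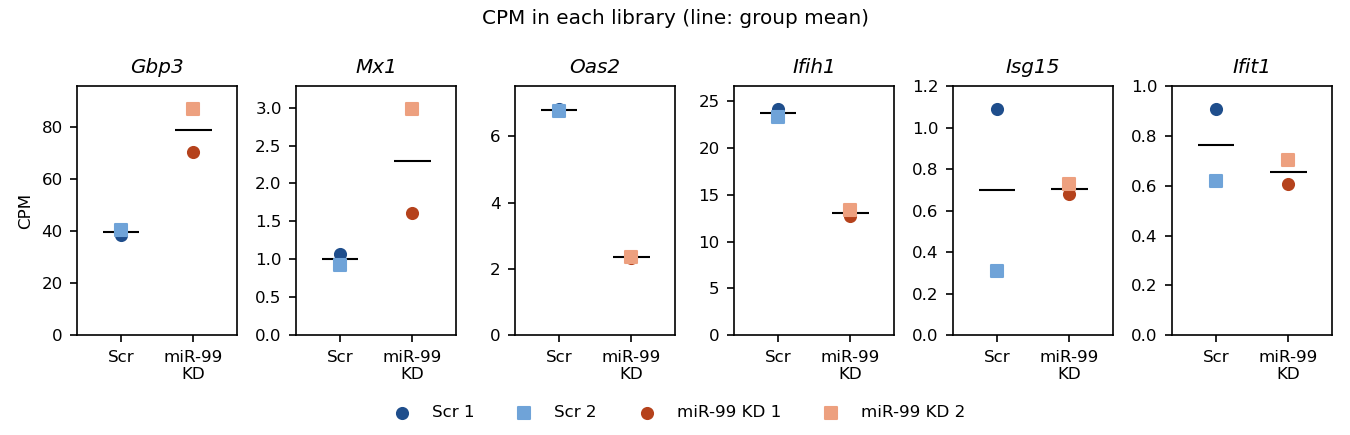
CPM in each library for the 4 genes with an unadjusted p under 0.05 and for the classical reporters Isg15 and Ifit1, with the group mean as a line and a separate axis from 0 in each panel. Gbp3 and Mx1 are higher and Oas2 and Ifih1 lower in both miR-99 KD libraries, and the groups overlap for Isg15 and Ifit1.

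Among the transcription factors, Irf7, the amplifier of type I interferon production and itself a strongly induced target, had 6.92, 6.76, 4.36 and 4.44 CPM. The groups did not overlap, and the log2 fold change was −0.58 ± 0.23 with an edgeR adjusted p of 0.639. Irf1, which also answers interferon gamma, had 66.4, 60.5, 53.9 and 45.4 CPM (−0.30 ± 0.19, adjusted p 0.716). Among the partners of the ISRE-binding complex, Irf9 had 43.5, 38.1, 41.5 and 44.6 CPM (0.13 ± 0.17, adjusted p 0.835). Stat2 had 68.0, 65.1, 64.0 and 35.1 CPM, so that miR-99 KD 2 alone was low, and its log2 fold change of −0.37 ± 0.34 was 0.049 without that library.

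The OAS family, which makes or mimics the RNase L messenger system, had 5 negative members and 1 positive member. Of all genes tested, 51% were negative. Without Scr 1, and also without miR-99 KD 1, the family had 4 negative and 2 positive members. Besides Oas2, Oas1g had 2.18, 1.31, 1.22 and 0.658 CPM (log2 fold change −0.82 ± 0.47, edgeR adjusted p 0.699). Oas1a had 27.8, 25.5, 23.2 and 16.1 CPM (−0.38 ± 0.26, adjusted p 0.734), and its fold change ran from −0.63 to −0.096 with 1 library left out. Oas3 had 5.04, 2.67, 2.72 and 2.40 CPM and its groups overlapped. The catalytically inactive Oasl1 ran from 12 to 29 counts, whereas Oasl2 was the positive member (0.89 ± 0.49, adjusted p 0.694). The family's median log2 fold change was −0.45, and −0.17 without Scr 1. Oas1a, Oas1g and their neighbours are near-identical in places, and reads that aligned to several of them were not counted, so their single values are uncertain.

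In both tested IFIT genes the Scr and miR-99 KD values overlapped. Ifit2, the most abundant, had 21.9, 19.2, 20.0 and 18.3 CPM (log2 fold change −0.04 ± 0.20, edgeR adjusted p 0.956), and Ifit1 had 0.910, 0.621, 0.609 and 0.705 CPM (−0.15 ± 0.38, adjusted p 0.912). Both SEs exceeded the fold changes. Isg15 had a log2 fold change of 0.10 ± 0.64 (edgeR adjusted p 0.968). Its Scr values, 1.09 and 0.310 CPM, lay on either side of the miR-99 KD values of 0.680 and 0.729 CPM. Without Scr 1 it was 1.23 and without Scr 2 −0.46. Usp18, the protease that removes Isg15 from proteins, had 53, 46, 59 and 33 counts. Trim25, a ubiquitin ligase that acts with RIG-I, had 64.4, 52.4, 49.0 and 34.5 CPM (−0.42 ± 0.25, adjusted p 0.705).

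Of the nucleic acid sensors other than Ifih1, Eif2ak2, the kinase PKR that halts translation on double-stranded RNA, had 35.7, 31.7, 28.8 and 14.5 CPM. Here miR-99 KD 2 was again the low library, and the log2 fold change was −0.58 ± 0.39 (edgeR adjusted p 0.728). Without that library it was −0.12, and without miR-99 KD 1 it was −1.12. Ddx58, the sensor RIG-I, had 21.5, 17.6, 18.5 and 16.6 CPM (−0.10 ± 0.21, adjusted p 0.895), and Dhx58, its relative LGP2, had 12.3, 10.1, 12.1 and 11.5 CPM (0.13 ± 0.21, adjusted p 0.863). Zbp1, a sensor of Z-form nucleic acid, had 1.85, 1.17, 1.59 and 2.07 CPM (0.35 ± 0.34, adjusted p 0.786). Ifih1 and Ddx58, whose products both signal through the adaptor Mavs, thus had values that did not overlap between the groups in the former and did in the latter. Whether the 2 fold changes differ was not tested.

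The 3 guanylate-binding protein genes had fold changes of both signs. They lie together on chromosome 3, from 142530342 (start of Gbp7) to 142638008 (end of Gbp2) on GRCm38. Gbp3 and Gbp2 had higher values in both miR-99 KD libraries, Gbp2 from a low level (1.01, 0.908, 1.36 and 1.18 CPM, log2 fold change 0.46 ± 0.31, edgeR adjusted p 0.734). Gbp7 had lower ones, with 23.2, 26.2, 19.9 and 15.03 CPM (−0.45 ± 0.26, adjusted p 0.701). An ISRE was in the windows of all 3.

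Among the remaining effectors, Cmpk2, a mitochondrial nucleotide kinase, had 27.6, 32.1, 35.9 and 40.3 CPM (log2 fold change 0.40 ± 0.22, edgeR adjusted p 0.693). Its neighbour Rsad2 on chromosome 12 had overlapping groups and a log2 fold change of −0.15 ± 0.43 (adjusted p 0.922). Sp100 had a log2 fold change of −0.08 ± 0.15 (edgeR adjusted p 0.879), Ifi35 of 0.06 ± 0.18 (0.922) and Bst2 of −0.25 ± 0.36 (0.847). In each of these 3 abundant genes the SE exceeded the fold change. Samhd1, which depletes nucleotides that viruses need for DNA synthesis, had 68.9, 58.4, 55.8 and 86.0 CPM. Cxcl10, a chemokine that attracts T cells, had 60, 30, 32 and 25 counts, Rtp4 24, 9, 15 and 4, and Xaf1 185, 185, 137 and 203. The ADP-ribosyltransferase genes Parp9 (0.01 ± 0.18) and Parp14 (0.21 ± 0.32) overlapped between groups, and exons of Parp9 overlap those of Dtx3l on the opposite strand.

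**Figure D4:**
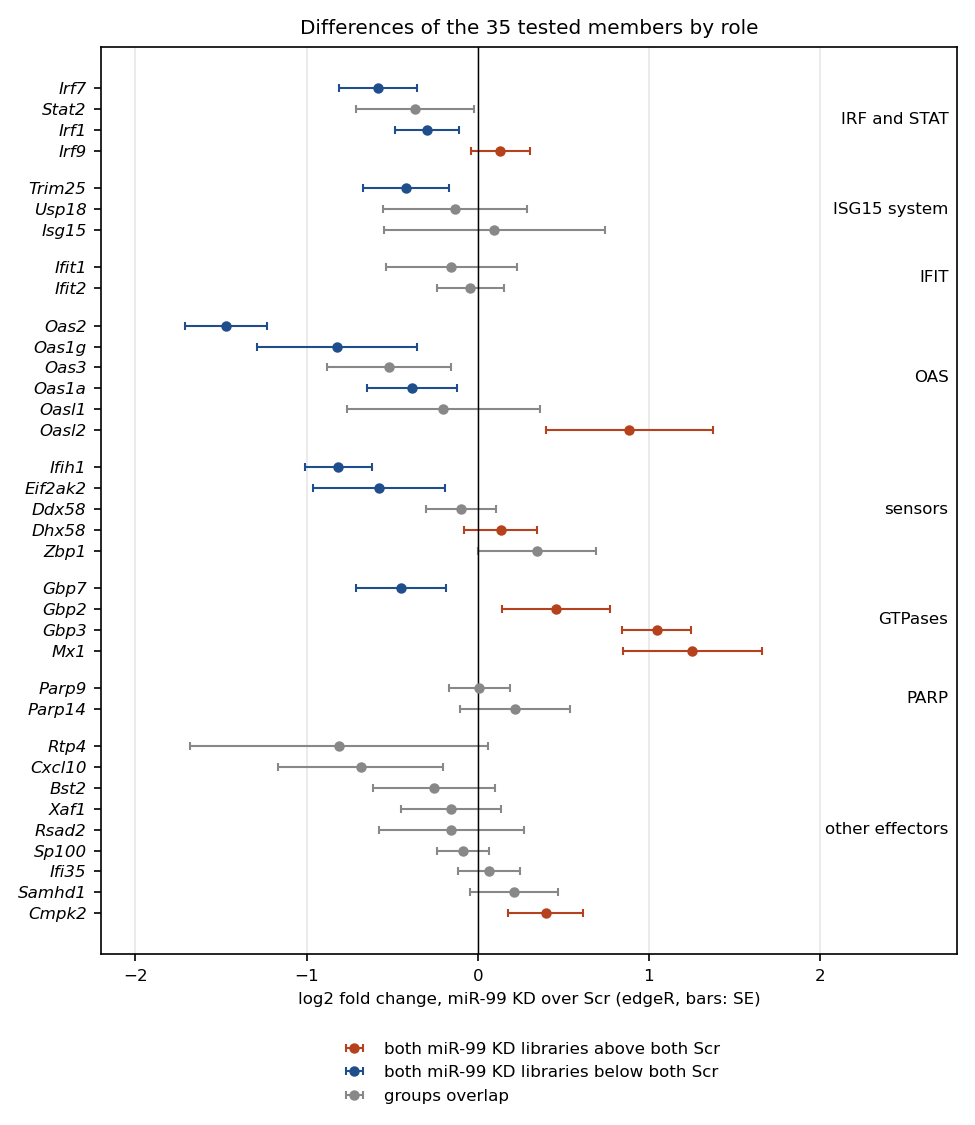
Log2 fold change of miR-99 KD over Scr with its standard error for the 35 tested genes, grouped by role and coloured by whether the 2 groups of libraries overlap. Of these, 7 genes are separated upwards, 9 downwards and 19 overlap, scored in log2 CPM with library scaling factors. Oas2 (−1.47), Gbp3 (1.04) and Mx1 (1.254) are the only ones beyond 1 on the log2 scale.

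The spread between replicates was set beside the differences between groups. The median absolute difference between the libraries of a group, in log2 CPM, was 0.16 within Scr and 0.28 within miR-99 KD over the 35 genes, and 0.23 and 0.36 over all genes tested. The median absolute difference between group means was 0.35 for the list and 0.30 for all genes. It exceeded both within-group differences in 11 of the 35 genes (31.4%, against 28.7% of all genes). These 11 were Irf1, Irf7, Irf9, Oas2, Oasl2, Mx1, Gbp2, Gbp3, Gbp7, Ifih1 and Cmpk2. For Irf9 this rested on the library scaling factors in log2 CPM, as its groups overlapped in CPM without them. The widest gaps between replicates were in Isg15 within Scr (1.54) and in Rtp4 within miR-99 KD (1.52), both at low counts.

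The fold changes were also set beside the promoter motifs. Of the 15 tested genes with a match 3 were positive and 12 negative, with a median log2 fold change of −0.37. Of the 12 tested genes with a window and no match 5 were positive and 7 negative, with a median of −0.06. The 8 tested genes without a window had a median of 0.07, or 0.0048 (without miR-99 KD 1) to 0.21 (without miR-99 KD 2) with 1 library left out. The first of these medians rested on single libraries: it was −0.046 without Scr 1, with 6 genes positive and 9 negative, −0.12 without miR-99 KD 2 and −0.63 without miR-99 KD 1. That of the genes with no match was 0.076 without Scr 1 and 0.11 without miR-99 KD 1. Whether the 2 sets differ was not tested. Gbp3 and Ifih1, which both hold the motif, had fold changes of opposite sign.

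The interferon genes themselves had few counts, whereas the receptor genes were well covered. The 21 interferon genes together had 35, 4, 5 and 7 counts, and none passed the filter. Ifnb1, interferon beta, had 10, 1, 2 and 3 counts. Again Scr 1, the library with the high olfactory receptor counts, had the most. Among the receptor genes, Ifnar1 had 133, 134, 121 and 104 CPM, Ifnar2 140, 155, 164 and 194, Ifngr1 1148, 1080, 940 and 1215, and Ifngr2 44.9, 84.2, 81.9 and 81.3. The kinase genes Jak1 (285, 426, 347 and 251 CPM) and Tyk2 (131, 106, 106 and 54.4 CPM) and the factor gene Irf3 (86.4, 71.5, 70.9 and 60.6 CPM) had edgeR adjusted p from 0.742 to 0.861.

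Of the 17 genes of receptors and signalling, all tested, 10 were positive and 7 negative, with a median log2 fold change of 0.01. With 1 library left out that median ran from −0.18 (without Scr 1) to 0.23 (without Scr 2). The single gene at an unadjusted p under 0.05 in edgeR was Ifnlr1, a receptor chain for type III interferons (5.88% of 17, against 2.66% of all genes higher). Ifnlr1 had 49, 27, 82 and 97 counts and a log2 fold change of 1.20 ± 0.40 (edgeR adjusted p 0.616, DESeq2 adjusted p 0.546). Of 19 tested genes of sensing and interferon induction 12 were positive, with a median of 0.08, or 0.098 to 0.22 with 1 library left out (highest without miR-99 KD 1). Irf8, a factor of monocyte and dendritic cell fate, had 217, 154, 284 and 446 CPM (1.04 ± 0.28, edgeR adjusted p 0.580). Ifi204, a DNA-binding protein of the p200 family, had 15, 23, 35 and 75 counts (1.49 ± 0.54, adjusted p 0.622).

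A further 69 interferon-stimulated genes outside the list were examined. Of the 57 tested, 25 were positive and 32 negative, with a median of −0.05. With 1 library left out it ran from −0.12 (without miR-99 KD 1) to 0.11 (without Scr 1). At an unadjusted p under 0.05, 4 were higher and 4 lower (7.02% each, against 2.66% and 5.23% of all genes). Both counts moved when 1 library was left out, in fits that hold only 1 library in a group. The shares of all genes moved in those fits too. Oas1c, another oligoadenylate synthetase gene of the chromosome 5 cluster, had 346, 332, 168 and 135 counts. Its groups lay apart as those of Oas2 did, with a log2 fold change of −1.19 ± 0.25 (edgeR adjusted p 0.469, DESeq2 adjusted p 0.0379). Slfn8, a Schlafen gene, had 22.9, 20.7, 13.4 and 9.95 CPM (−0.84 ± 0.25, edgeR adjusted p 0.583). On the higher side were Ifitm3, which blocks virus entry (0.74 ± 0.26, adjusted p 0.621), and Ly6e (0.48 ± 0.17, adjusted p 0.621). An ISRE was in the windows of 27 of the 52 genes of this list with a window (51.9%) and of 1 of 14 receptor and signalling genes (7.14%).

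**Figure D5:**
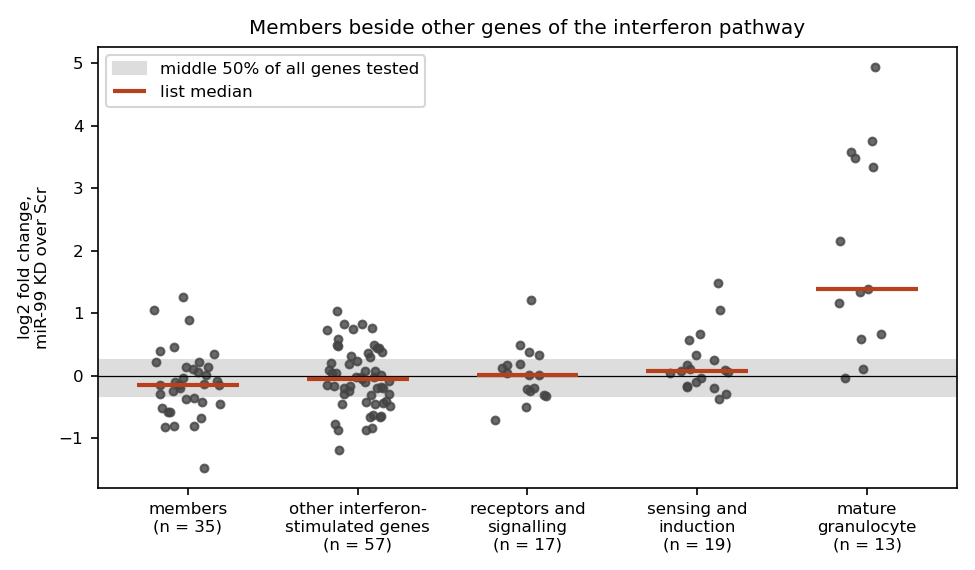
Log2 fold change of miR-99 KD over Scr for the tested genes of the list, of 3 other lists of the interferon pathway and of mature granulocyte markers; each point is a gene, the red line the list median and the grey band the middle 50% of all genes tested. The 4 interferon lists centre near 0 (medians −0.15, −0.05, 0.01 and 0.08) and the granulocyte markers lie higher (1.38). Without Scr 1 the same medians were 0.053, 0.11, −0.18, 0.19 and 1.92.

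Markers of other cell types had differing values in the same libraries, and those of mature granulocytes were the furthest from 0. Of 13 tested granulocyte markers 12 were positive (median log2 fold change 1.38, and 1.12 to 2.07 with 1 library left out), and the list summed to 1258, 467, 3376 and 10480 CPM. At an unadjusted p under 0.05, 8 of the 13 were higher (61.5%, against 2.66% of all genes), and 1 of the 13 when miR-99 KD 2 was left out. Called higher at an adjusted p under 0.05 were 0 by edgeR and 6 by DESeq2, against 0% and 0.725% of all genes. Ltf, the granule protein lactoferrin, had 191, 76, 2245 and 6146 counts, a log2 fold change of 4.94 ± 0.77 (adjusted p 0.421 in edgeR and 1.11e-10 in DESeq2). Ngp, another granule protein, had 441, 146, 1358 and 4821 CPM (3.48 ± 0.85, edgeR adjusted p 0.532, DESeq2 adjusted p 0.000439). Gbp3 had 70.6 and 87.2 CPM in the same miR-99 KD libraries, and the part of the granulocyte markers in the values of the interferon-stimulated genes was not tested.

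Plasmacytoid dendritic cells are the main producers of type I interferon, and their list gave mixed values. Low in all libraries were Siglech with 14, 0, 17 and 3 counts, Ccr9 with 28, 12, 12 and 4, Ly6d with 3, 11, 0 and 4, and Klk1, Pacsin1 and Spib with 0 to 9 counts. Tcf4, a transcription factor that these cells need, had 147, 93, 855 and 1643 counts, a log2 fold change of 3.34 ± 0.46. DESeq2 gave it an adjusted p of 1.06e-08 and edgeR 0.356. Irf8, given above, is also on this list and had higher values in both miR-99 KD libraries, whereas Cd300c had 42, 40, 20 and 17 counts (edgeR adjusted p 0.599). Of the list's 12 tested genes 7 were positive (median 0.16, and 0.0011 to 0.39 with 1 library left out, lowest without Scr 2 and highest without Scr 1), and it summed to 3651, 3167, 3637 and 5579 CPM. Bst2 is on it too. The part of these cells in the values of the interferon-stimulated genes was not tested.

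Monocyte and macrophage markers had a median of −0.11 with 8 of 17 positive (−0.16 to 0.054 with 1 library left out, highest without Scr 1, summed 2199, 1632, 2176 and 2983 CPM). Of these, F13a1 and Cybb were higher in edgeR at an unadjusted p under 0.05 (11.8% of 17, against 2.66% of all genes). That count and the share of all genes both moved when 1 library was left out. F13a1 had a DESeq2 adjusted p of 0.0321. The T and NK cell list had 4 of 16 genes tested (median −0.88, −0.18 without Scr 1, −0.51 without miR-99 KD 2 and −1.43 without miR-99 KD 1, summed 168, 115, 152 and 161 CPM). Its Klrb1c had 50, 60, 11 and 10 counts (DESeq2 adjusted p 0.0238). The B cell list had 8 of 12 tested (median 0.27, 1.02 without Scr 1 and 0.061 without Scr 2). It summed to 196, 132, 216 and 308 CPM. Its Ighm was higher in edgeR at an unadjusted p under 0.05 (12.5% of 8, against 2.66% of all genes). The erythroid list had 11 of 12 tested (median −0.59, 4 positive and 7 negative, summed 88.8, 109, 52.3 and 129 CPM). With 1 library left out the median ran from −0.83 (without miR-99 KD 2, 11 negative) to −0.17 (without Scr 2). It was −0.30 without miR-99 KD 1 and −0.62 without Scr 1. With all 4 libraries, 3 of the 11 were lower in edgeR at an unadjusted p under 0.05 (27.3%, against 5.23% of all genes). Ermap and Car1 were among them, and DESeq2 called 1 gene of the list lower, against 0.949% of all genes. A last list held gate genes together with Mpo, Hoxa9 and Meis1, which are not part of the gate. It had 7 genes tested (median 0.15, 0.32 without Scr 1, summed 2756, 2367, 3914 and 6276 CPM). At an unadjusted p under 0.05 in edgeR, Mpo was higher (14.3% of 7, against 2.66% of all genes). Hoxa9, Meis1 and Kit were lower at that p (42.9%, against 5.23%). DESeq2 called Mpo higher (adjusted p 5.50e-06).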

How the data were processed

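RNA from the sorted cells was amplified with SMARTer, per the labels' protocols. The authors deposited raw counts of reads for each Ensembl gene, which are whole numbers with differing totals. Per the submitters' processing notes, STAR, Picard, HTSeq and DESeq2 were used with mm9. The sources used here do not state versions, annotation release or strand setting. The 5 categories that name no gene held 43.7% to 49.7% of entries per library, reads aligned to several places among them, and were left out.

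Groups were compared with edgeR 4.0.16 in R 4.3.3 by the two-sided quasi-likelihood test. Libraries were scaled by TMM, genes were filtered at the default minimum count of 10, and no covariate was used. Benjamini-Hochberg adjustment ran over 15591 genes, with a threshold of 0.05. The fit left 2 residual degrees of freedom and had a common biological coefficient of variation of 0.320. Standard errors come from the test statistic. An exact test of a single value over 2 and 2 libraries cannot pass the threshold. The p-values measure the spread between these libraries, which are not stated to have been prepared separately. Alternatives were DESeq2 1.42.0, limma-voom 3.58.1, other scalings and filters, a replicate block and each library left out. CPM uses the sum of gene counts, and log2 CPM has TMM factors and a prior count of 2. The limit given for a gene at 0 is 3 counts, for counting error alone.

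The genes and lists were chosen with earlier results of these data known. All 38 were described. Given in full were the 6 with the smallest p in each direction, the 6 with the highest level per length, and Isg15, Irf7, Irf9, Stat2, Ifit1, Ifit3, Oasl2 and Mx1. Outside the list, Ifnar1, Ifnar2, Ifngr1, Ifngr2, Jak1, Tyk2, Irf3, Ifnb1 and the 2 genes per list and direction with the smallest p under 0.05 were named, with the gate genes Kit, Cd34, Fcgr3 and Ly6a. Symbols were matched by identifier, with 1 alias. Gene coordinates and exon lengths were read from GENCODE M21 (GRCm38) through those identifiers, and exon lengths may differ from those counted. The fits were run on simulated data, with the required result set at a smaller spread between replicates than in these data. What they call at the spread of these data is not given here, and the motif search was tried on short made-up sequences. One further gene of that rule is not reported here.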

Additional observations from a re-analysis of the deposited data

How the results depend on the processing

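No gene of the list passed in edgeR under any normalization, filter or left-out library tried, and DESeq2 called 2 (Oas2 and Gbp3) and 1 other pathway gene, Oas1c. Over all genes, edgeR called 0, 23 with upper-quartile factors, 9 without a filter and 0 to 294 when 1 library was left out, the highest without Scr 1; DESeq2 called 261. The cause was not tested. The numbers 1 and 2 in the titles are not stated to pair mice. Deviations of same-numbered libraries correlated at −0.43 over all genes and at 0.16 over the 35 tested genes of the list. With the replicate block, an unadjusted p under 0.05 was reached by 1 higher and 1 lower gene of the list, and by 2 higher and 1 lower of the other pathway genes against 7 and 4. Crossing the numbers, an alternative chosen after seeing the data, gave 28 calls over all genes. The stricter filter and limma-voom each left 4 other pathway genes higher.

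Leaving out 1 library, the genes of the list at an unadjusted p under 0.05 ranged from 1 to 3 higher and 1 to 6 lower, and those of the other pathway lists from 3 to 14 higher and 2 to 12 lower. Over all genes in the same fits, chosen after seeing the data, 1.42% to 7.02% were higher and 2.44% to 8.96% lower at that p. Genes of the list with separated groups ranged from 8 to 14 higher (22.9% to 40%) and 9 to 17 lower (25.7% to 48.6%), against 33.9% to 35.8% and 34.8% to 38.2% of all genes, since 3 libraries separate more often than 4. The list's median ranged from −0.24 to 0.053, the highest without Scr 1. The sign held under every setting tried in 20 of the 35 tested genes. Of these, Irf7, Oas2, Gbp2, Gbp3 and Ifih1 stayed within 1.5 times of their value when 1 library was left out. The rest ranged over −0.38 to −0.13 (Irf1), 0.13 to 0.23 (Irf9), −0.63 to −0.096 (Oas1a), −1.29 to −0.40 (Oas1g), −0.80 to −0.011 (Oas3), 0.58 to 1.42 (Oasl2), 0.80 to 1.68 (Mx1), 0.037 to 0.22 (Ifi35), −1.04 to −0.046 (Cxcl10), −0.63 to −0.21 (Gbp7), 0.16 to 0.70 (Zbp1), 0.11 to 0.27 (Dhx58), −0.66 to −0.14 (Trim25), 0.30 to 0.64 (Cmpk2) and −1.12 to −0.12 (Eif2ak2). The 15 whose sign changed, with the range when 1 library was left out, were Isg15 (−0.46 to 1.23), Ifit1 (−0.29 to 0.14), Ifit2 (−0.066 to 0.069, and 0.014 without a filter), Oasl1 (−0.92 to 0.35), Usp18 (−0.57 to 0.27), Rsad2 (−0.64 to 0.29), Ddx58 (−0.14 to 0.046), Rtp4 (−1.99 to 0.096), Sp100 (−0.14 to 0.099), Parp14 (−0.12 to 0.56), Xaf1 (−0.42 to 0.15), Stat2 (−0.83 to 0.049), Bst2 (−0.70 to 0.15), Samhd1 (−0.080 to 0.54) and Parp9 (−0.019 to 0.13, −0.011 with upper-quartile factors and −0.023 with the stricter filter). The shorter motif GAAANNGAA was in 2638 genes of the whole table and 18 of the list. Genes under about 100 counts, such as Isg15 and Ifit1, are limited by depth.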
